A study of Mus musculus with 10 samples.

Results

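Guidance cues are secreted or membrane-bound ligands, and this account covers 10 mouse genes of such cues and their receptors. These are the secreted ligands Slit2 and Slit3, with their receptors Robo1 and Robo2. The others are the class 3 semaphorins Sema3a, Sema3c, Sema3e and Sema3f, the semaphorin receptor Nrp1 and the ephrin ligand Efnb2. The 10 genes were picked by name with earlier results of the genotype comparison known, Slit3 among them. All 10 are found once each among the 37298 rows of the expression table. RNA was sequenced from hair follicle stem cells (HFSCs), the resting cells of the bulge from which hair regrows, sorted from telogen back skin as integrin α6-high, CD34-positive, ScaI-negative and YFP-positive. The first group holds 2 libraries labelled Sox9 knockout (called labelled cKO here) and the second 2 controls, whose titles say Het and whose genotype field says wild type. All 4 are on a mixed C57BL6 background and were treated with RU486, which activates the CrePGR recombinase. Replicate 1 of each genotype is a male sample of day 75 (RU486 on days 48 to 61), and replicate 2 a female sample of day 80 (days 53 to 66). Binding of SOX9, an HMG-box transcription factor, was mapped by chromatin immunoprecipitation (ChIP-seq) in 2 HFSC libraries and 1 library of interfollicular epidermal (IFE) cells, CD34-negative and ScaI-negative, from CD-1 female mice aged 52 to 60 days that had no treatment. The labels name neither the Sox9 allele, nor the promoter that drives CrePGR, nor the number of animals in a library.

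Slit proteins are secreted, bind Robo receptors on neighbouring cells and mostly repel the growth or migration of the cells that carry them. Class 3 semaphorins are also secreted and signal through plexins, most of them by way of a neuropilin co-receptor. Sema3e can bind plexin D1 without a neuropilin. Ephrin-B2 is a membrane-bound ligand of Eph receptors. These families are best known from growing axons and blood vessels.

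The sort was checked against fixed marker genes. All 8 HFSC markers and all 3 basal keratinocyte markers were above the filter, a mean of at least 1 FPKM (fragments scaled to transcript length and library size, the unit of all expression values here). Of the endothelial list, which includes Robo4, 0 of 6 reached it, and their summed level was at most 0.411 FPKM in any library. All 4 suprabasal markers also reached it, with Krt10 between 1729 and 3973 FPKM. So did 3 of 5 immune, 2 of 7 fibroblast and dermal papilla, and 2 of 5 smooth muscle and pericyte markers. Of the Schwann and melanocyte list 1 of 6 reached it, and of the Merkel list 1 of 3. For Sox9 itself the labelled cKO libraries had 71.3 and 80.5 FPKM, against 82.7 and 46.5 FPKM in controls, in the order replicate 1 and replicate 2 used throughout. It was thus lower in the male pair only, and directions given here follow the labels. This whole-gene value does not show the deleted part.

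Levels of the 10 genes spanned from well expressed to barely listed. FPKM is scaled by transcript length, so that levels of different genes can be set side by side. Efnb2 had 68.9 and 40.9 FPKM in labelled cKO libraries, against 80.7 and 48.3 FPKM in controls. Sema3c, a semaphorin of heart and vessel development, had 71.6 and 36.7 FPKM in labelled cKO libraries, against 86.5 and 35.1 FPKM in controls. These were the top members in each library, in changing order, and their ranges overlapped in both groups, so their order was not resolved. Over the 4 libraries, their means lay above those of 86.8% and 86.4% of the 14455 tested genes.

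Sema3e had 33.7 and 12.3 FPKM in labelled cKO libraries, against 57.1 and 25.5 FPKM in controls. Slit3 had 33.6 and 13.1 FPKM in labelled cKO libraries, against 14.0 and 4.02 FPKM in controls. In the labelled cKO libraries Sema3e and Slit3 were thus at nearly the same level, while in each control Sema3e stood above Slit3. Sema3f, which acts mainly through the neuropilin Nrp2, was the steadiest, with 13.6 and 12.6 FPKM in labelled cKO libraries and 11.9 and 12.9 FPKM in controls.

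The receptors were lower. Robo2 had 5.26 and 2.63 FPKM in labelled cKO libraries, against 6.41 and 2.33 FPKM in controls. Robo1 had 2.29 and 1.84 FPKM in labelled cKO libraries, against 2.65 and 3.05 FPKM in controls. Robo2 stood above Robo1 in 3 libraries and below it in the replicate 2 control, so these neighbours were not ordered either. Nrp1, a co-receptor that binds Sema3a, had 0.772 and 0.414 FPKM in labelled cKO libraries and 1.05 and 0.242 FPKM in controls.

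The remaining cues were near the floor of the table. Slit2 had 0.182 and 0.209 FPKM in labelled cKO libraries and 0.271 and 0.0922 FPKM in controls. Slit3 exceeded Slit2 in every library. Sema3a had 0.00464 and 0.316 FPKM in labelled cKO libraries and is listed at 0 in both controls, so no fold is given. Nrp1, Slit2 and Sema3a lay below the filter and were not tested, which leaves 7 of the 10 genes in the tests. Mir218-1 and Mir218-2, microRNA genes listed with the same locus coordinates as Slit2 and Slit3, are listed at 0 in all 4 libraries. These rows, which carry the whole Slit2 and Slit3 spans, do not show whether the microRNAs themselves are present.

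**Figure D1:**
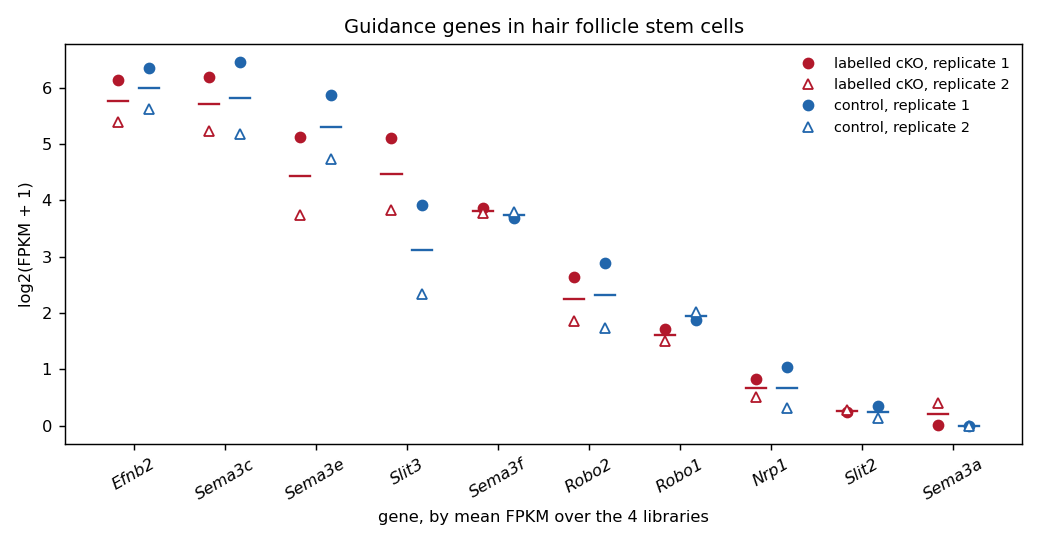
Expression of the 10 guidance genes, as log2(FPKM + 1), in each of the 4 libraries. Red marks labelled cKO and blue control, circles replicate 1 and triangles replicate 2, and the short lines are group means of 2 libraries. Slit3 (33.6 and 13.1 FPKM in labelled cKO, 14.0 and 4.02 in control) and Sema3e (33.7 and 12.3 in labelled cKO, 57.1 and 25.5 in control) shift in opposite directions in both pairs.

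SOX9 binding was examined next, as peaks in or within 50 kb of each locus on build mm9. HFSC list 1 had a peak near 7 of the 10 genes, HFSC list 2 near 5 and the IFE list near 4, where 33.8%, 22.2% and 32.2% of all 28050 gene loci in the table had one. Overlapping peaks of both HFSC lists lay near 5 of the 10, namely Slit3, Sema3e, Sema3f, Nrp1 and Efnb2. The share over all loci was 15.0%, over loci of at least 100 kb, as 8 of the 10 are, 19.0%, and over such loci of tested genes 27.0%. Per list, the shares over loci of at least 100 kb were 48.3% and 26.3% for the HFSC lists and 39.8% for the IFE list, and over such loci of tested genes 61.9%, 36.5% and 52.7%. The shares of tested genes are not like for like, since 3 of the 10 members were not tested. Nor are the shares of long loci, since Sema3f (28974 bp) and Efnb2 (43806 bp), counted for every list and among the shared sites, are shorter than 100 kb. Of the members of at least 100 kb, only Slit3, Sema3e and Nrp1 had a shared HFSC site, and Nrp1 was not tested. Slit2 (ENSMUSG00000031558, chr5:48374393-48697521), Robo2 (ENSMUSG00000052516, chr16:73892550-74412070) and Sema3a (ENSMUSG00000028883, chr5:13125592-13602565) had no peak of any list in this window. The lists differ in length (8181 and 2989 peaks in HFSCs, 5209 in IFE cells), and with 1 IFE library a difference between cell types cannot be tested.

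Slit3 (ENSMUSG00000056427, chr11:34934725-35522009) holds 3 SOX9 sites that both HFSC lists share, all inside the locus. The first lies at chr11:35121254-35121950 in list 1 and chr11:35121270-35121947 in list 2, centred 186.9 kb from the lower edge of the locus. The second, chr11:35130991-35131811 in list 1, also overlaps a peak of the IFE list at chr11:35131081-35131527. The third, chr11:35500488-35501502 in list 1, lies 21.0 kb short of the upper edge. Of the other HFSC list 1 peaks, 3 are inside the locus. A further one, 41963 bp above it, lies closer to Mir103-1 than to Slit3. No list had a peak at the lower edge, the transcription start side of this plus-strand gene (strand from RefSeq, GRCm38.p6).

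Sema3e (ENSMUSG00000063531, chr5:14025275-14256689) is the gene whose start side both HFSC lists cover. The peaks are chr5:14025006-14025849 in list 1 and chr5:14024997-14025661 in list 2. A second shared site lies 32.4 kb inside (chr5:14057267-14058093 in list 1), with 4 further list 1 peaks in the locus. The IFE list has 0 peaks within 50 kb of Sema3e, against 6 in HFSC list 1 and 2 in HFSC list 2.

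Efnb2 (ENSMUSG00000001300, chr8:8617433-8661239, minus strand) has 1 shared HFSC site near its middle, chr8:8639644-8640299 in list 1. Its start side, the upper edge, is covered by a peak of HFSC list 2 (chr8:8660966-8661748) and one of the IFE list (chr8:8661150-8661652), but by none of HFSC list 1. The locus 4921522P10Rik begins 52 bp from the list 2 peak and 148 bp from the IFE peak, and was at most 0.121 FPKM in any library. Nrp1 (ENSMUSG00000025810, chr8:130882972-131029362) has 1 site in both HFSC lists, chr8:131022727-131023423 in list 1, and 0 IFE peaks; its transcript was below the filter.

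Sema3f (ENSMUSG00000034684, chr9:107583832-107612806) has 2 and 3 peaks in the HFSC lists, against 6 in the IFE list, and like Robo1 has more peaks in the IFE list than in either HFSC list. Of its 2 shared HFSC sites, both also in the IFE list, one starts 3842 bp above the locus in list 1 and the other lies in the neighbouring Gnai2 locus. Robo1 (ENSMUSG00000022883, chr16:72663393-73046340) has 2 IFE peaks at its start side, chr16:72663113-72663518 and chr16:72663585-72663864, with 0 HFSC peaks there and 1 HFSC list 1 peak 22620 bp below the locus. Sema3c (ENSMUSG00000028780, chr5:17080098-17236086) has 2 peaks of HFSC list 1 inside the locus and none of the other lists.

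**Figure D2:**
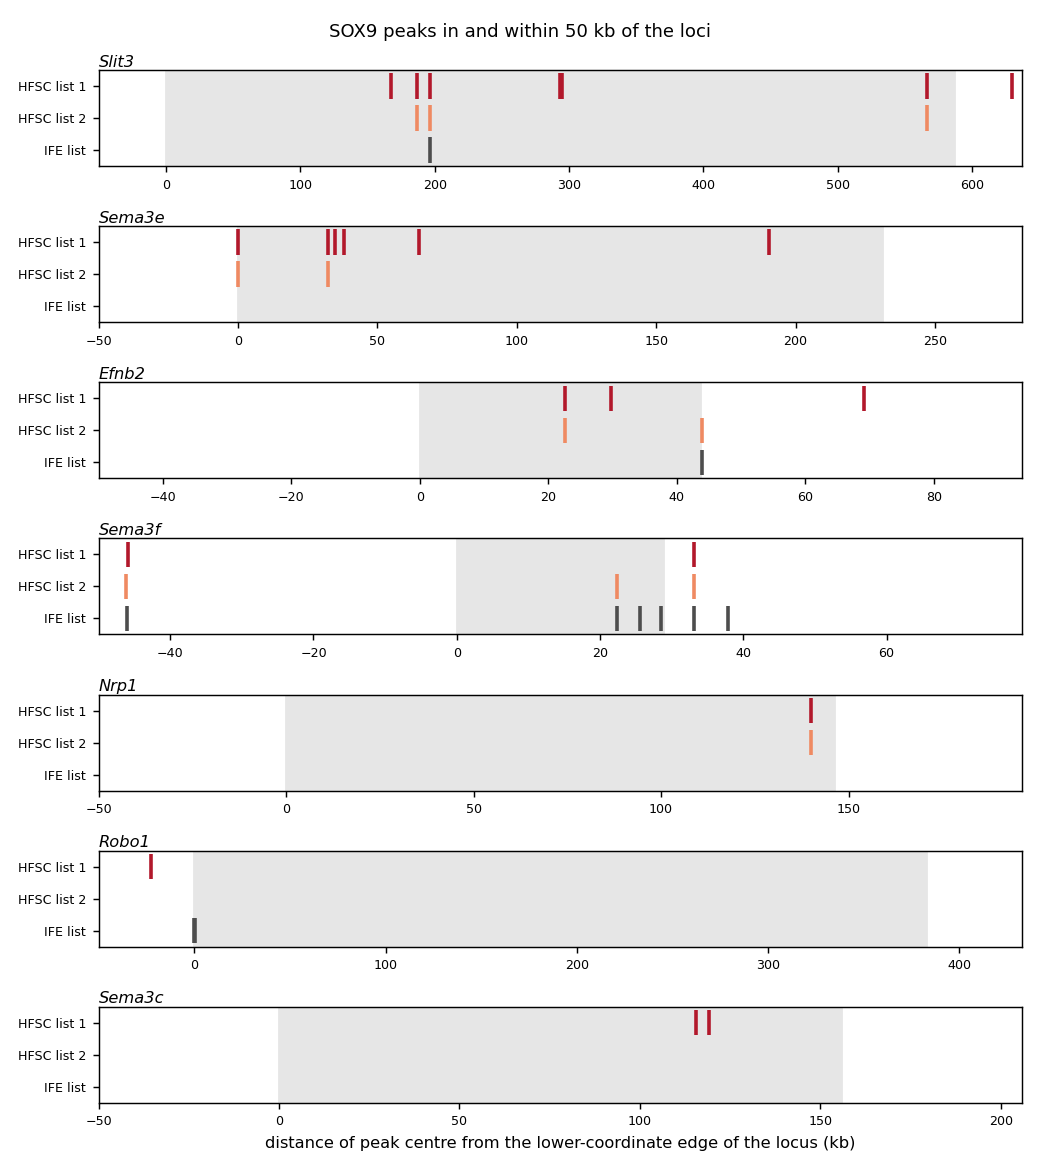
Positions of SOX9 peak centres around 7 loci, in kb from the lower-coordinate edge of each locus (grey band); tick rows are HFSC list 1, HFSC list 2 and the IFE list. Shared HFSC ticks stand at 186.9 kb in Slit3 and at the lower edge of Sema3e, where the IFE row is empty.

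The promoters below are shown because a SOX9 peak covers the start side of Sema3e, Efnb2 and Robo1, while Slit3, with the largest genotype difference, has none there. They are the 250 bases before the annotated start, 5′ to 3′ on the gene's strand, from RefSeq (GRCm38.p6), a build that differs from the mm9 of the peaks. Slit3 starts at 35121456 in GRCm38.p6 and at 34934725 in the mm9 table, 186731 bp apart, so that its promoter coordinates resemble those of a peak without lying there. That the peaks are on mm9 was checked on 12704 genes whose starts differ by at least 20 kb between the builds. A peak lay within 1 kb of 995 mm9 starts in HFSC list 1, 914 in list 2 and 1393 in the IFE list, against 157, 82 and 125 GRCm38.p6 starts. Capitals mark a match to the SOX consensus, 8 heptamers searched on both strands, in which the opening pair of letters and the letter before the last are each A or T, around a fixed CAA and a final G.
Slit3, plus strand, chr11:35121206-35121455: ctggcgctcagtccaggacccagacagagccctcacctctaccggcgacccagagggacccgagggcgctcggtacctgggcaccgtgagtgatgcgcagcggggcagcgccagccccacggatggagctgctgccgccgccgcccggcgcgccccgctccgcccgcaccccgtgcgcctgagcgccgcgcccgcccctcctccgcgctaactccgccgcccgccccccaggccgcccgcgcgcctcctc
Sema3e, plus strand, chr5:14025026-14025275: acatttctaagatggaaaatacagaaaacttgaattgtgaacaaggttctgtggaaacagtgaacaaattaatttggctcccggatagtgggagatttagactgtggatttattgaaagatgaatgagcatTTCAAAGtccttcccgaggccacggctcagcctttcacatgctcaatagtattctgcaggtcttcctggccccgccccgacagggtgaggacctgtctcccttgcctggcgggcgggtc
Efnb2, minus strand, chr8:8661243-8661492: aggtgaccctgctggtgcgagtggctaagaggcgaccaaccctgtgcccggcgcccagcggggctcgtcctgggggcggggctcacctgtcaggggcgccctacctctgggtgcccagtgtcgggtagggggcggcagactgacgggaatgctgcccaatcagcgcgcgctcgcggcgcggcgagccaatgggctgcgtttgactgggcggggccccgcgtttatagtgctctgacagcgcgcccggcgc
Robo1, plus strand, chr16:72662899-72663148: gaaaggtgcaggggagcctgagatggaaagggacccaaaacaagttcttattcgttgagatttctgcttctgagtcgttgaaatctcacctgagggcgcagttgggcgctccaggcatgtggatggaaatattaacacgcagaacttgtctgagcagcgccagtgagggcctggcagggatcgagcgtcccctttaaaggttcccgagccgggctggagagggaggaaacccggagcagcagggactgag
Of these, the Sema3e window holds TTCAAAG, beginning 119 bases before the start. At least 1 of the 8 heptamers occurred in 1 of 11 promoters of the 9 matched genes, against 21.8% of all 32851 promoters of the same length. Such matches describe letters, and the Slit3 window, with a GC content of 78.8% against a median of 52.4%, holds none of them.

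The genotype comparison asked how these genes differ when Sox9 is labelled deleted. Among the 7 tested members Slit3 had the largest positive and Sema3e the most negative mean difference. Slit3 differed by 1.20 in the male and 1.49 in the female pair on the log2(FPKM + 1) scale, a scale that understates changes of low genes. Its groups overlap, since the replicate 2 library labelled cKO (13.1 FPKM) lies just under the replicate 1 control (14.0 FPKM). The mean was 1.35 ± 0.70 (SE) with genotype alone, where limma called 0 of the 7 tested members and 0% of the 14455 genes (93 genes but 0 members had an unadjusted p under 0.05). With the replicate number as a block the SE of Slit3 was 0.16 (limma adjusted p = 0.0347). The call was lost in 4 other fits with the block, at a limma adjusted p of 0.0623 with the span trend removed, 0.106 with quantile normalization, 0.217 without a mean trend and 0.742 without the filter. The fit with the block as first given called 1 of the 7 members, Slit3, and 0.284% of all genes (0.104% higher and 0.180% lower). Slit3 was on the list because of this contrast, so its p is a description and nothing is read from the count.

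Sema3e differed by -0.75 in the male and -0.99 in the female pair (mean -0.87 ± 0.14 SE with the block, limma adjusted p = 0.0897), short of the threshold. Its groups overlap, with the replicate 1 library labelled cKO (33.7 FPKM) above the replicate 2 control (25.5 FPKM). In bulk samples, fewer cells of a type and less RNA per cell cannot be told apart. Robo1 was the tested member whose groups did not overlap, with both labelled cKO values below both controls, as for 8.42% of all tested genes (0 members and 5.47% of genes had both above). Its log2 differences were -0.15 and -0.51.

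The other members moved little. Efnb2 gave -0.22 and -0.23, nearly the same in both pairs. Sema3c gave -0.27 and 0.06, Robo2 -0.24 and 0.12, and Sema3f 0.18 and -0.03. With the replicate block, the adjusted p of these and of Robo1 lay between 0.532 and 0.947 (limma). The median change of the 7 tested members was -0.10, beside -0.01 over all tested genes.

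**Figure D3:**
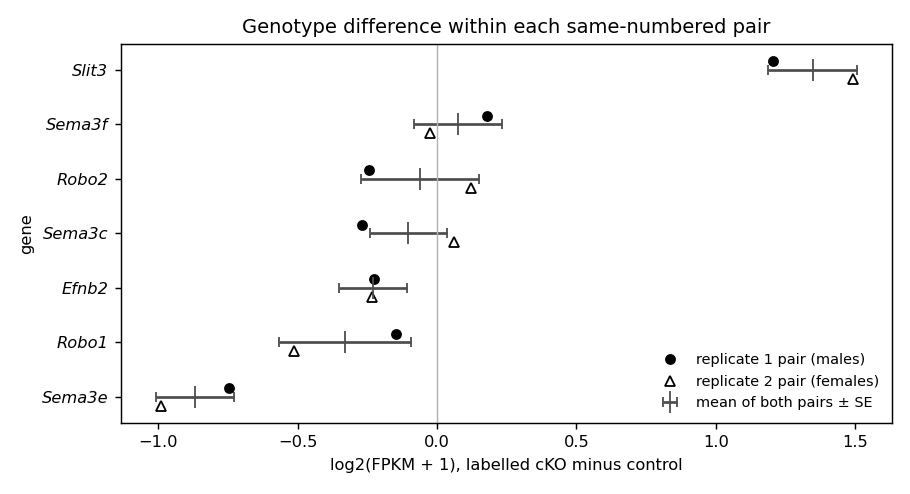
Difference between labelled cKO and control within each pair on the log2(FPKM + 1) scale, for the 7 tested members. Circles are the male pair, triangles the female pair, and bars the mean ± moderated SE of the fit with the replicate block. Slit3 lies at 1.20 and 1.49, Sema3e at -0.75 and -0.99, and the other 5 lie closer to 0.

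Markers of other cell types were set beside the Slit3 values. The 7 fibroblast and dermal papilla markers summed to 22.5 and 22.4 FPKM in labelled cKO libraries and to 16.9 and 8.64 FPKM in controls, and 2 of the 7 reached the filter, Col1a1 and Col1a2. Col1a2, most of the sum in each library, had 21.9 and 13.8 FPKM in labelled cKO libraries, against 14.8 and 7.4 FPKM in controls. Like Slit3, Col1a2 was higher in labelled cKO in both pairs (log2 differences 0.54 and 0.82) and lower in replicate 2 within both genotypes. Its genotype difference was not called with the block (limma adjusted p = 0.24). Col1a1 moved in opposite directions, by -1.07 in the male and 2.15 in the female pair. Pdgfra was at most 0.136 FPKM and Corin at most 0.0309 in any library. The 5 smooth muscle and pericyte markers summed to 2.96 and 41.3 FPKM in labelled cKO libraries and to 2.69 and 2.04 in controls, where Acta2 alone gave 35.8 FPKM in labelled cKO replicate 2. The 4 suprabasal markers summed to 2505 and 4662 FPKM in labelled cKO libraries and to 2641 and 7275 FPKM in controls, and the 5 immune markers to 36.2 and 52.7 FPKM against 37.3 and 79.7 FPKM. The 3 Merkel markers summed to 0.324 and 9.31 FPKM in labelled cKO libraries and to 0.122 and 0.799 FPKM in controls, with Atoh1 at 0 in every library. Of the HFSC markers, Lhx2, a transcription factor of the bulge, had 113.9 and 87.1 FPKM in labelled cKO libraries, against 359.5 and 195.4 FPKM in controls. It was the 1 of 8 HFSC markers called, lower, in the fit with the block (limma adjusted p = 0.0273), and no other marker was called in that fit. The summed HFSC list stood at 9667 and 11650 FPKM in labelled cKO libraries and at 11090 and 10420 FPKM in controls. Most of that sum was Krt15, at 8703 and 10894 FPKM against 9613 and 9375 FPKM. Cd34 had 459.5 and 463.0 FPKM in labelled cKO libraries, against 652.1 and 680.0 FPKM in controls. Lgr5 and Nfatc1 were also lower in both pairs, Itga6 was higher in both, and Krt15, Tcf7l1 and Sox9 moved in opposite directions. The part of any of these in the Slit3 and Sema3e values was not tested.

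Pattern likeness was described by distance. The 5 tested genes whose centred log2 levels over the 4 libraries lay closest to Slit3 were Clec3b, encoding the plasminogen-binding protein tetranectin, Sorbs2, a cytoskeletal adaptor, Epas1, encoding the hypoxia-inducible factor HIF-2α, Adamts1, a matrix protease, and the small RNA SNORD83. Their Euclidean distances ran from 0.345 to 0.418 log2 units. Clec3b stood at 48.9 and 22.4 FPKM in labelled cKO libraries and at 24.8 and 9.13 in controls. For Sema3e, added after its values were seen, the closest was Dab2, an endocytic adaptor (distance 0.0303), at 19.3 and 6.67 FPKM in labelled cKO libraries and 33.1 and 14.2 in controls.

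A further difference ran between the replicate numbers. Its mean size was larger than that of the genotype difference for Sema3e, Sema3c, Robo2 and Efnb2. For Slit3 both were of similar size, and for Sema3f and Robo1 it was smaller. Slit3, Sema3e, Sema3c, Robo2 and Efnb2 were lower in the female day 80 libraries than in the male day 75 libraries within both genotypes, and Sema3f and Robo1 were not. Slit3 differed by -1.29 between the labelled cKO libraries and by -1.58 between controls, replicate 2 minus replicate 1, with a mean of -1.44 ± 0.16 (SE; limma, adjusted p = 0.000598). Sema3e differed by -1.38 and -1.13 (mean -1.26 ± 0.14, limma adjusted p = 0.000598). Sema3c had a mean of -1.11, Robo2 of -0.97 and Efnb2 of -0.73, with limma adjusted p between 0.000927 and 0.00873. So 5 of 7 tested members were called lower and 0 higher, where 24.1% of all tested genes were called lower and 25.8% higher. In each class of loci of 10 kb or more, more genes were called lower than higher. Under 10 kb it was the reverse, with 325 of 4039 tested genes lower and 1891 higher. At 200 kb or more 374 of 1024 tested genes were lower and 179 higher, and at 100 to 200 kb 620 of 1419 were lower and 209 higher. At 10 to 100 kb 2171 of 7973 were lower and 1452 higher. Sema3f (0.00 ± 0.16) and Robo1 (-0.03 ± 0.24) had limma adjusted p of 0.983 and 0.927. Scaled to equal FPKM sums, which moves the median of all genes to -0.49, Sema3f was also called lower (-0.52, limma adjusted p = 0.0344), and Robo1 changes sign under quantile normalization, equal medians and removal of a span trend. Cell type markers moved with the replicate number too. Of the 8 HFSC markers 5 were called lower in replicate 2 and 0 higher, among them Nfatc1 (-1.78), Lgr5 (-1.57), Tcf7l1 (-1.34) and Itga6 (-1.24). Of the 4 suprabasal markers 3 were called higher, among them Lor (2.89) and Krt10 (0.87). In the immune list Cd74 was called higher (1.01) and Cd68 lower (-0.86). Among basal keratinocyte markers Krt14 was called higher (0.51) and Trp63 lower (-0.82). Col1a2 of the fibroblast list was called lower (-0.77) and Krt8 of the Merkel list higher (1.82). The limma adjusted p was under 0.05 for each marker named. What part these markers have in the difference of the guidance genes was not tested. Sex, age, treatment days and sample handling all change with the replicate number and cannot be told apart.

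The span of a locus moved with this difference over all genes. Its median was 0.45 for loci under 10 kb, -0.13 for 10 to 100 kb, -0.42 for 100 to 200 kb and -0.29 for 200 kb or more. Slit3 (587284 bp), Sema3e (231414 bp) and Robo2 (519520 bp) lie below the median of their class, and Robo1 (382947 bp) above it. With a trend on span removed from each library, 5 of 7 members were still called, all lower. In that fit 6197 of all 14455 tested genes were called, 2952 lower and 3245 higher.

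**Figure D4:**
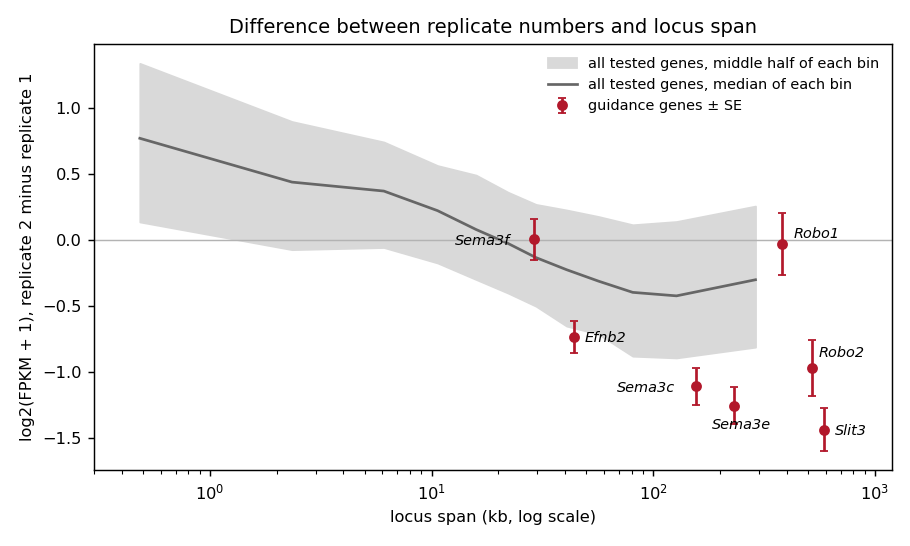
Difference between replicate 2 and replicate 1 (log2(FPKM + 1), mean over both genotypes) against locus span in kb on a log axis. The grey line and band give the median and interquartile range of all 14455 tested genes in 12 bins, red points the 7 tested members ± SE; Slit3 lies lowest at -1.44.

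A wider list of 73 genes of the same signalling systems, 75 rows of the table, gave the setting for these changes. It holds the other semaphorins, plexins, neuropilin 2, ephrins, Eph receptors, netrins and their receptors. Also on it are Slit1, Robo3, Robo4, Gpc1, Crmp1 and the Srgap, Rgm, Dpysl and Mical genes. Of all these, 42 rows passed the filter. Limma called 0 of the 42 with and 0 without the replicate block; with the block 3 were higher and 8 lower at an unadjusted p under 0.05, and without it 0. In both pairs 7 of the 42 were higher and 21 lower in labelled cKO libraries, beside 28.4% higher and 29.6% lower of all tested genes. The median change was -0.10.

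Among ligands, Sema5a, a transmembrane semaphorin, had 11.2 and 3.81 FPKM in labelled cKO libraries, against 5.82 and 1.55 FPKM in controls. Its pair differences of 0.84 and 0.92 were the highest by their mean among the rows that moved one way in both pairs, followed by the Eph receptor gene Epha2 at 0.84 and 0.55 and by Sema4c at 0.08 and 0.82. Sema5a also holds 1 SOX9 site of both HFSC lists inside its locus. None of the 3 passed the test.

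The lowest were Ntn4, a laminin-related netrin of basement membranes, at -1.12 and -0.50, Efna5, an ephrin-A ligand, at -0.71 and -0.82, and Mical1, which oxidizes actin downstream of plexins, at -0.55 and -0.62. Ntn4 had 2.77 and 2.70 FPKM in labelled cKO libraries, against 7.18 and 4.23 FPKM in controls. Of the 7 tested ephrin rows 5 were lower in both pairs and 0 higher, beside 29.6% lower and 28.4% higher of all tested genes. Efna5 fills 2 of these rows under separate identifiers at the same locus, whose reads the counting can split. Its other row gave -0.82 and -0.12. Of 7 tested Eph receptor rows 3 were lower and 3 higher, of 8 semaphorin rows 4 and 2. Of 5 plexin rows 2 were lower and 0 higher, as were 2 and 0 of 3 rows of netrins and their receptors. The partner receptors differ in level: Nrp2 stood between 0.176 and 0.470 FPKM, and Plxnd1, the receptor of Sema3e, between 0.275 and 0.509 FPKM. Both lay below the filter, while Plxna2, a plexin partner of neuropilins, had 42.7 and 15.7 FPKM in labelled cKO libraries and 69.2 and 18.7 in controls.

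SOX9 sites of both HFSC lists lay within 50 kb of 24 of the 73 genes, beside 15.0% of all loci. Of the 32 that span at least 100 kb, 10 had one, beside 19.0% of all loci and 27.0% of tested loci of that length. In 9 genes a site lay inside the locus. They tie as closest, and the first 6 in alphabetical order, Ephb1, Mical2, Plxna2, Plxna3, Plxnb2 and Sema4b, are named by the rule. Plxnb2 gave pair differences of -0.15 and 0.00 and Plxna3 of -0.63 and 0.60.

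**Figure D5:**
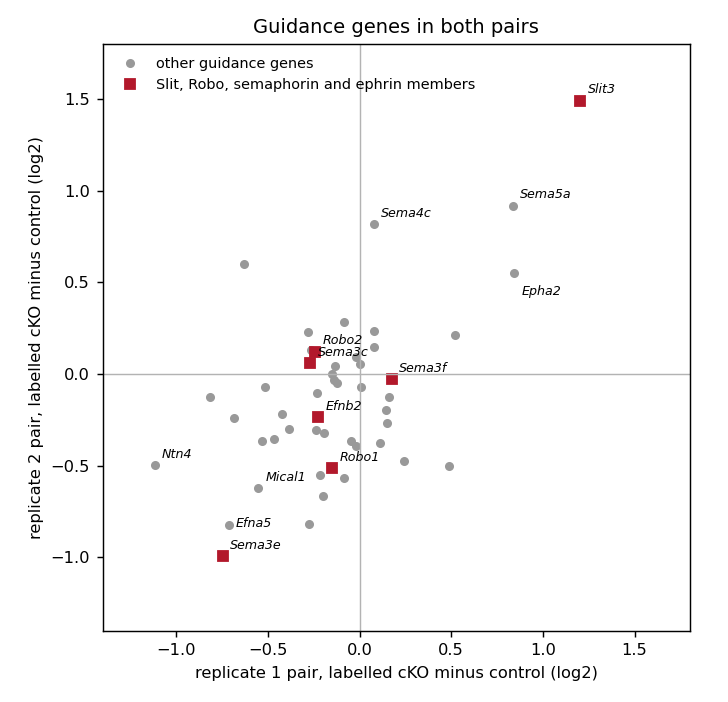
Log2 difference between labelled cKO and control in the replicate 1 pair (x axis) and the replicate 2 pair (y axis) for the 42 tested rows of the wider list (grey circles) and the 7 tested members (red squares). Slit3 (1.20 and 1.49) lies farthest to the upper right, with Sema5a (0.84 and 0.92) next to it, and Sema3e (-0.75 and -0.99) at the lower left.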

How the data were processed

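RNA was sequenced in 4 HFSC libraries and SOX9 ChIP in 3 libraries; the 3 input libraries were not used here. Expression was deposited by the authors as FPKM in a single table, per the file headers. Cufflinks 1.0.3, TopHat, TopHat2, Bowtie and build mm9 appear, without roles, per the submitters' processing notes. For strand setting and filters nothing is given. Deposited peak lists give other values only, chromosome, start and end, with no score; no source used here names the caller. FPKM of low genes shared no common step (at most 1.51% of ratios in a bin), so depth is unknown.

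The 10 members and all lists were chosen with earlier results of these data known. limma 3.58.1 (R 4.3.3) was run on log2(FPKM + 1) (mean trend, two-sided, Benjamini-Hochberg adjustment over 14455 genes with mean FPKM of at least 1, threshold 0.05), without and with the replicate number as a block. The numbers pair libraries of the same sex, age and treatment days, and same-numbered deviations correlated at 0.812 across genes. With the block 1 residual degree of freedom is left, so SEs lean on the spread shared across genes. No label says that libraries came from separate animals, so p-values cover only the differences among these 4, which may be technical. The comparison of replicate numbers was added after the data were seen. Peaks were shared at 1 bp of overlap. Promoters and strands came from RefSeq (GRCm38.p6), matched by symbol for 9 members. Of the wider list, the text names the 3 highest and 3 lowest that moved one way in both pairs, any called gene, and 6 genes with a shared HFSC peak, closest first; for Slit3 it names the 5 genes of the closest pattern. The fits were tested on simulated data. Alternatives changed the pseudocount, filter, scaling, trend, block, window and overlap.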

Additional observations from a re-analysis of the deposited data

Results flagged for a closer look

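Of the tested members, 3 differed between labelled cKO and control in opposite directions in the male and the female pair, each with 1 library a side, and the difference between pairs was not tested. Sema3c gave -0.27 in the male and 0.061 in the female pair on the log2(FPKM + 1) scale. Robo2 gave -0.24 in the male and 0.12 in the female pair. Sema3f gave 0.18 in the male and -0.027 in the female pair. With the replicate block, their mean changes were all within 1 SE of 0.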

How the results depend on the processing

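The genotype calls depended on the block. It moved the count over all genes to 41 and the members called to 1; with the block, a pseudocount of 0.1 gave 33 genes and 1 member, a pseudocount of 5 gave 78 genes and 2 members (Slit3 and Sema3e, adjusted p = 0.0368), quantile normalization 3 genes and a removed span trend, added after seeing the data, 8 genes, both with 0 members. With the block and no filter or no mean trend, 0 genes were called. Over the blocked fits Slit3 lay between 1.01 and 1.47 (adjusted p between 0.0102 and 0.742) and Sema3e between -0.90 and -0.75. Leaving out 1 library, without the block and with 1 residual degree of freedom, called between 2 and 41 genes and 0 members. Slit3 then lay between 0.56 (without control replicate 2) and 2.14 (without control replicate 1), and Sema3e between -1.56 (without labelled cKO replicate 1) and -0.18 (without labelled cKO replicate 2). Without labelled cKO replicate 2 and without control replicate 1, Robo2 turned to 0.33 and 0.52, Sema3c to 0.37 and 0.53, and Efnb2 to 0.14 and 0.135. Over the 4 such fits Robo2 lay between -0.64 and 0.52, Sema3c between -0.74 and 0.53, and Efnb2 between -0.60 and 0.14; each also carries the difference between replicates. Equal FPKM sums moved the median of all genes to -0.12 and Sema3f to -0.049. Between replicates, equal sums moved that median to -0.49 and Sema3f to -0.52, and equal medians to 0.135; Robo1 turned to 0.071 with quantile normalization, 0.11 with equal medians and 0.21 without the span trend. Slit3, Sema3e, Sema3c, Robo2 and Efnb2 stayed lower in replicate 2 in all 8 fits, with Robo2 short of the threshold without a filter (adjusted p = 0.0942). Of the peak counts, the IFE count of 4 moved to 1 with peaks at least as wide as the list median. Where no cause is given, the cause was not tested.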
